A study of Homo sapiens with 6 samples.

Results

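Fibronectin (FN1), the thrombospondins THBS1, THBS2 and THBS3, tenascin C (TNC), SPARC, osteopontin (SPP1), vitronectin (VTN), TGFBI and periostin (POSTN) encode secreted glycoproteins of the extracellular matrix. These 10 genes were taken by symbol from the deposited table of 58735 genes, and each symbol matched 1 gene. Their RNA was measured in 6 libraries of ARPE-19, an established cell line derived from human retinal pigment epithelium (RPE). OE_CD51_ICD is 3 libraries of ARPE-19 cells overexpressing CD51-ICD, where CD51 is the integrin alpha V subunit encoded by ITGAV. NC is 3 libraries of control cells whose genotype is given as WT. The labels give no vector, promoter, clone, culture time or separate cultures. A p-value therefore weighs the difference between groups only against the spread of these libraries within a group, and that spread may be technical. The series title places SPP1 and ITGAV in signalling from microglia to RPE in dry macular degeneration.

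Fibronectin is assembled by cells into fibrils through integrins, chiefly alpha 5 beta 1, and vitronectin and osteopontin bind alpha V integrins through an Arg-Gly-Asp sequence. Thrombospondins, tenascin C, SPARC, osteopontin and periostin are called matricellular proteins, because they modulate the contact between cells and matrix more than they build it. In the eye, RPE cells secrete much of the matrix on which they rest, Bruch's membrane, and vitronectin is a known constituent of the deposits that form there with age.

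The promoter sequences of the 4 most abundant genes of the set, FN1, THBS1, SPARC and TGFBI, are shown because these 4 carried nearly all of the reads and were higher together. Each is the 250 bases before the RefSeq start site on GRCh38.p14, written 5′ to 3′ on the gene's strand, with matches to 6 searched motifs in capitals. The windows are chr2:215436069-215436318 on the minus strand (FN1), chr15:39580829-39581078 on the plus strand (THBS1), chr5:151686916-151687165 on the minus strand (SPARC) and chr5:136028738-136028987 on the plus strand (TGFBI).
FN1: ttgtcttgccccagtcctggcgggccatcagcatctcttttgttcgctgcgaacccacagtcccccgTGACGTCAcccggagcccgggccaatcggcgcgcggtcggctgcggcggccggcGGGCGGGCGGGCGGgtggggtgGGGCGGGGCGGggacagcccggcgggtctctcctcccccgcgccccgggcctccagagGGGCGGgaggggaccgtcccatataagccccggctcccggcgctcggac
THBS1: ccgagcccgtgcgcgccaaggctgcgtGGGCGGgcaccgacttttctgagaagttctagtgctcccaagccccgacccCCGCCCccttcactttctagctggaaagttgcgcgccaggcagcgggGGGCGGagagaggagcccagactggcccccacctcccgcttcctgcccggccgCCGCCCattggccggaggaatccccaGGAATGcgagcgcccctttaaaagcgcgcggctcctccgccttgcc
SPARC: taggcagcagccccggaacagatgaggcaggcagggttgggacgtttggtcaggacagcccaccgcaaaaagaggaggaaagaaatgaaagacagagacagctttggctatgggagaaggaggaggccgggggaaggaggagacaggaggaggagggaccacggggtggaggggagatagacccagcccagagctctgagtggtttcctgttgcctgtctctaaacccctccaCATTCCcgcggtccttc
TGFBI: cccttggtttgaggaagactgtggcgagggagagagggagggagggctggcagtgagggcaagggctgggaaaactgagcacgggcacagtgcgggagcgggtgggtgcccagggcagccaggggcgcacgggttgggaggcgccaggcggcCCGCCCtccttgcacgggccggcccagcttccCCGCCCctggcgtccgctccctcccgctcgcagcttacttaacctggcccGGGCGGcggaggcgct

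The motifs were searched on both strands of the RefSeq windows of all 10 genes, 11 windows in all because THBS3 has a pair of start sites, and of 35116 promoters of the same length. FN1 held the cyclic AMP response element TGACGTCA at position -183 from its start site, a match found in 1.65% of all promoters. The GC box GGGCGG, a sequence bound by SP1 factors, was matched at 6 places in FN1, some of them overlapping, at 4 in THBS1 and at 3 in TGFBI, but at none in SPARC, and 42.6% of all promoters held it. The TEAD motif GGAATG was matched once in THBS1, at -46, and once in SPARC, at -17, and was present in 11.9% of all promoters. None of the 4 windows held the AP-1 motif TGACTCA (4.20% of promoters), the SMAD motif CAGACA (13.6%) or the TATA box TATAAA (10.7%). Over the 10 genes, the GC box was matched in 5, the TEAD motif in 4, the SMAD motif in 3, the TATA box in 2, and the AP-1 motif and the cyclic AMP response element in 1 each. GC content was 76.4% in the FN1 window, 72.8% in TGFBI, 69.6% in THBS1 and 59.2% in SPARC, against a median of 58.0% over all promoters. The gene spans of the deposited table start upstream of the RefSeq start for FN1, TGFBI and SPARC, so their windows lie partly (FN1 and TGFBI) or wholly (SPARC) inside them. A match is a string of letters, not evidence that a factor binds there. Only the exact letters were searched, so a variant form of a motif, such as a variant TATA box, would be missed.

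Total counts ran from 14577912 to 15640428 per OE_CD51_ICD library and from 13616694 to 16934668 per NC library. ITGAV had 436, 536 and 371 CPM (counts per TMM-scaled library size) in OE_CD51_ICD replicates 1, 2 and 3, against 113, 92.7 and 89.4 CPM in NC. A count over the whole gene cannot separate the introduced sequence from the cell's own transcript. Of the 13 RPE markers listed, RPE65 and TTR had no count in any library and BEST1 had 25 counts over OE_CD51_ICD and 34 over NC, whereas KRT8, KRT18, OTX2 and MITF were expressed in both groups. The visual cycle genes RLBP1, RDH5 and LRAT were each below 10 CPM on average, so markers of mature RPE were low or absent. Of the 9 RPE markers tested, RLBP1 and PMEL were higher in OE_CD51_ICD (log2 0.81 and 0.80), RDH5 and MITF were lower (log2 -1.33 and -0.56), and 5 did not pass (edgeR). The summed list was 4628 to 5351 CPM in OE_CD51_ICD and 5163 to 5621 CPM in NC, most of it KRT8 and KRT18, and its part in the results was not tested.

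Overexpression of CD51-ICD went with higher RNA of FN1, THBS1, TGFBI and SPARC, by 3.59-fold to 7.10-fold, and with lower VTN. Of the 10 genes, 7 passed the low-count filter and were tested. FN1, THBS1, TGFBI, SPARC and THBS3 were higher, VTN was lower and TNC did not pass, by edgeR's quasi-likelihood test with an adjusted p under 0.05. THBS2, SPP1 and POSTN had too few counts to be tested. Over all 13787 genes tested, 25.2% were called higher and 25.8% lower, so 5 higher and 1 lower of 7 is to be read against a comparison in which 51.0% of genes were called. The median log2 fold change was 1.85 over the 7 genes and 0.01 over all genes tested. Calls of at least 2-fold were rarer: 6.89% of tested genes were higher and 5.83% lower by that much, against 4 and 1 of the 7. In these bulk cultures, more RNA per cell and more cells making it cannot be told apart.

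**Figure D1:**
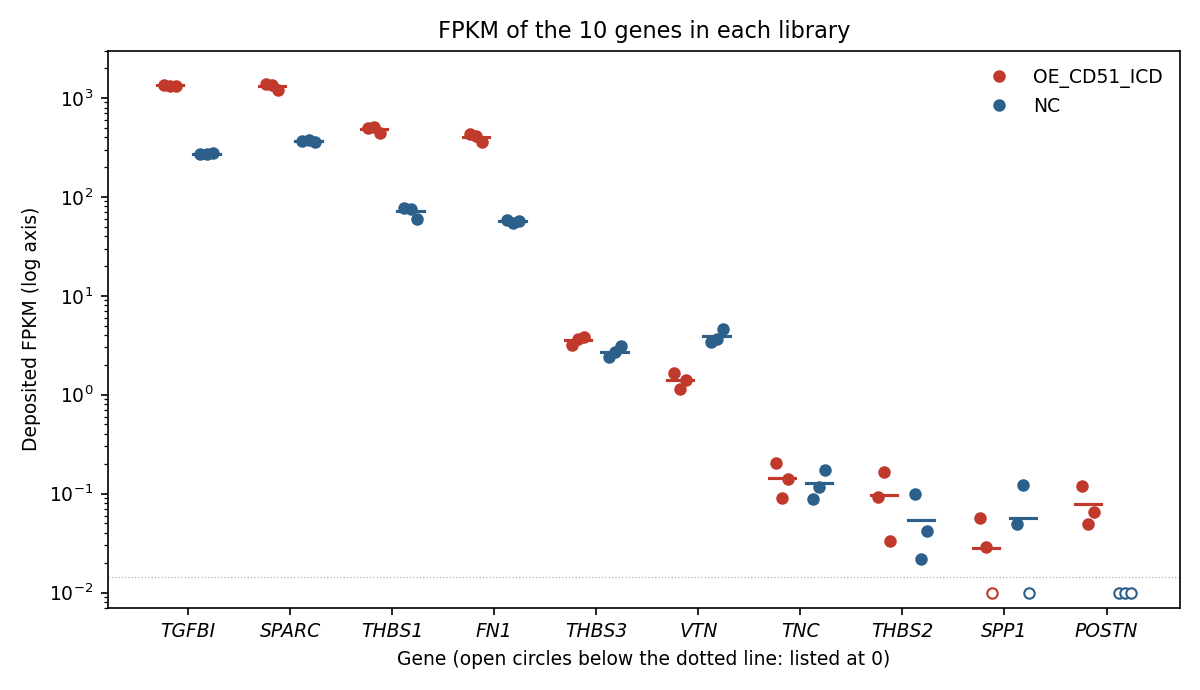
Deposited FPKM (reads scaled to gene length and library size, log axis) of each of the 10 genes in the 3 OE_CD51_ICD libraries (red) and the 3 NC libraries (blue), with group means as lines and values listed at 0 as open circles. TGFBI, SPARC, THBS1 and FN1 lie between 355 and 1391 FPKM in OE_CD51_ICD, while the other 6 genes lie below 5 FPKM in every library.

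**Figure D2:**
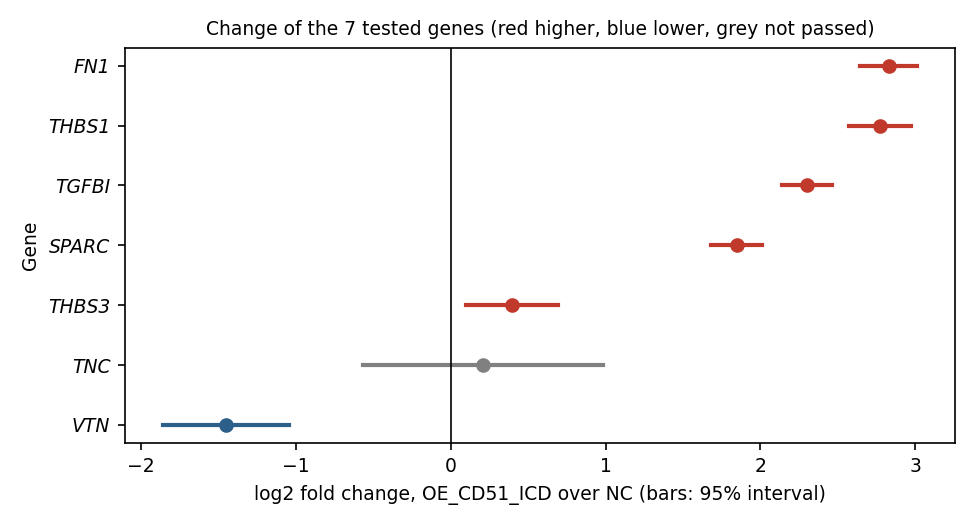
Log2 fold change of the 7 tested genes, OE_CD51_ICD over NC, with the 95% interval of the edgeR fit. The intervals of FN1, THBS1, TGFBI, SPARC and THBS3 lie above 0, that of VTN below 0, and that of TNC spans 0.

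FN1 encodes fibronectin, the main fibril-forming adhesive glycoprotein, and lies at chromosome 2, 215360440 to 215436172 on the minus strand (ENSG00000115414, GRCh38). Its RNA had 7555, 7415 and 6159 CPM in OE_CD51_ICD replicates 1, 2 and 3, against 1029, 948 and 999 CPM in NC replicates 1, 2 and 3. Every OE_CD51_ICD library was above every NC library, as was so for 28.0% of all tested genes, and replicate 3 was the lowest of its group. The log2 fold change was 2.83 ± 0.09 (SE), or 7.10-fold, with an adjusted p of 2.62e-21. Of all tested genes, 124 had a larger log2 fold change, and 13 of the 1876 genes averaging 100 CPM or more did. Gene counts do not resolve the alternatively spliced forms of fibronectin.

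Among the thrombospondins, THBS1 and THBS3 were higher by very different amounts. THBS1, which encodes thrombospondin 1, a trimeric inhibitor of angiogenesis and activator of latent TGF-beta, lies at chromosome 15, 39581079 to 39599466 (ENSG00000137801). It had 4639, 4827 and 4029 CPM in OE_CD51_ICD, against 720, 704 and 550 CPM in NC, with no overlap, a log2 fold change of 2.77 ± 0.10 (SE) and an adjusted p of 4.23e-20. This was 6.84-fold, close to the change of FN1.

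THBS3, which encodes a pentameric thrombospondin, lies at chromosome 1, 155195588 to 155209051 (ENSG00000169231). It had 14.9, 17.1 and 17.9 CPM in OE_CD51_ICD, against 11.1, 12.5 and 14.3 CPM in NC. The groups did not overlap, but the lowest OE_CD51_ICD library was only slightly above the highest NC library. The change was 1.32-fold, with a log2 fold change of 0.40 ± 0.15 (SE) and an adjusted p of 0.0227, and 3586 of 13787 genes had a larger one. This call was lost without NC replicate 1, without NC replicate 2 and without OE_CD51_ICD replicate 3 (adjusted p = 0.121, 0.0631 and 0.0618) and with library size as the only scaling (adjusted p = 0.0608). It ranged from 0.00173 to 0.121 over 19 alternatives. MTX1, a mitochondrial import gene on the opposite strand, shares 146 exon bases with THBS3, which is 3.16% of its exon length, and AC234582.1, an antisense gene, shares 1027 bases, or 22.2%. MTX1 had 16.1, 17.8 and 19.5 CPM in OE_CD51_ICD, against 27.8, 25.7 and 25.4 CPM in NC, a log2 fold change of -0.57 ± 0.12 (SE), the opposite direction to THBS3. AC234582.1 had 9, 9 and 10 counts in OE_CD51_ICD and 4, 2 and 1 in NC. Whether reads were counted by strand is not given in the sources used here, and the part of these neighbours in the THBS3 value was not tested.

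THBS2 encodes thrombospondin 2, the closest relative of thrombospondin 1, and lies at chromosome 6, 169215780 to 169254044. It had 9, 16 and 3 counts in OE_CD51_ICD and 11, 2 and 4 in NC, and the groups overlapped. The ratio of summed counts was 1.74 (exact binomial 95% interval 0.918 to 3.38, which covers counting error only), so no difference was detectable at this depth. Among these 3 genes nearly all RNA was THBS1: per length, THBS1 was 114 to 157 times THBS3 in the OE_CD51_ICD libraries, against 19.5 to 32.7 times in the NC libraries.

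TGFBI encodes TGF-beta-induced protein, a secreted adhesive protein with fasciclin domains known for corneal dystrophies, and lies at chromosome 5, 136028895 to 136063818 (ENSG00000120708). It was the set's most counted gene, with 10753, 10520 and 10446 CPM in OE_CD51_ICD, against 2144, 2144 and 2159 CPM in NC. Within each group its libraries were closer together than those of FN1, THBS1 or SPARC, with an SD of 1.52% of the mean in OE_CD51_ICD and 0.399% in NC. The log2 fold change was 2.30 ± 0.08 (SE), or 4.92-fold, with an adjusted p of 2.02e-20.

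POSTN, at chromosome 13, 37562583 to 37598844, encodes periostin, the relative of TGFBI with the same fasciclin domains, and stayed at trace level. It had 10, 4 and 5 counts in OE_CD51_ICD and 0 in each NC library. With the NC sum set to a floor of 3 counts, the ratio of summed counts was 6.68. This ratio takes the 19 OE_CD51_ICD counts as exact and has no interval. Without a low-count filter, where 13.1% of 26470 genes were called higher, POSTN was among them (adjusted p = 0.00130, edgeR). That call rests on very few counts. An exact permutation test (two-sided) on the CPM of POSTN gave p = 0.1, the smallest p it can give here. Per length its highest library reached 0.119 FPKM, while TGFBI was at 1312 FPKM or more in each OE_CD51_ICD library.

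SPARC encodes osteonectin, a calcium- and collagen-binding protein, and lies at chromosome 5, 151661096 to 151687165 (ENSG00000113140). It had 6777, 6638 and 5845 CPM in OE_CD51_ICD, against 1791, 1821 and 1746 CPM in NC. The groups were far apart, and replicate 3 was again the lowest of OE_CD51_ICD. The log2 fold change was 1.85 ± 0.08 (SE), or 3.59-fold, with an adjusted p of 1.05e-17. CLMAT3, an antisense gene that shares 381 bases (7.89%) with the exons of SPARC, had 23, 23 and 6 counts in OE_CD51_ICD and 7, 0 and 6 in NC, a small number beside the 81719 or more counts of SPARC in each OE_CD51_ICD library.

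TNC, at chromosome 9, 115019578 to 115118257, encodes tenascin C, a hexameric protein of developing and injured tissue, and was near the limit of detection. It had 30, 13 and 19 counts in OE_CD51_ICD and 15, 16 and 25 in NC, and the groups overlapped. The log2 fold change was 0.21 ± 0.38 (SE), with a 95% interval from -0.57 to 0.98 and an adjusted p of 0.673. The log2 fold changes of FN1, THBS1, TGFBI, SPARC and VTN lie outside that interval.

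VTN was the set's only lower gene. It encodes vitronectin, a serum and matrix protein bound by alpha V integrins and by the urokinase receptor, and lies at chromosome 17, 28367276 to 28373091 (ENSG00000109072). It had 4.08, 2.87 and 3.43 CPM in OE_CD51_ICD, against 8.39, 8.99 and 11.1 CPM in NC. Every OE_CD51_ICD library was below every NC library, as was so for 29.5% of all tested genes. The log2 fold change was -1.45 ± 0.20 (SE), with an adjusted p of 4.17e-07, and 338 genes had a lower one. SARM1, which encodes an NAD-cleaving enzyme of axon degeneration, overlaps VTN on the opposite strand and shares no exon base with it. SARM1 had 21.6, 22.1 and 23.3 CPM in OE_CD51_ICD, against 45.6, 44.8 and 44.6 CPM in NC, a log2 fold change of -1.01 ± 0.10 (SE) in the same direction as VTN. AC002094.3, on the same strand, shares 329 bases, 13.6% of the exons of VTN, and had no count in any library. The part of SARM1 in the VTN value was not tested.

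**Figure D3:**
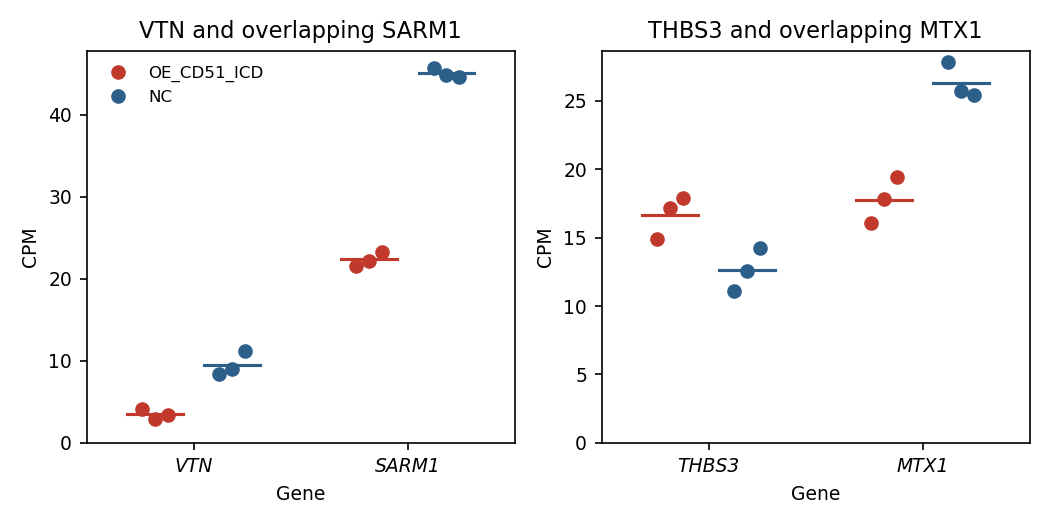
CPM of VTN with SARM1 and of THBS3 with MTX1, genes that overlap on opposite strands, in the 3 OE_CD51_ICD libraries (red) and the 3 NC libraries (blue), with group means as lines. VTN and SARM1 are both lower in OE_CD51_ICD, whereas THBS3 is higher and MTX1 lower.

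SPP1, at chromosome 4, 87975650 to 87983426, encodes osteopontin, the ligand that the series title pairs with ITGAV, and was barely detected. It had 2, 1 and 0 counts in OE_CD51_ICD and 2, 4 and 0 in NC. The ratio of summed counts was 0.527, with an exact binomial 95% interval of 0.0854 to 2.47, so these cells gave no detectable difference. The upper counting limit was 0.200 CPM over the OE_CD51_ICD libraries and 0.283 CPM over the NC libraries, while ITGAV averaged 448 CPM in OE_CD51_ICD and 98.4 CPM in NC.

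Compared per length, the 10 genes fell into separate classes of level. In OE_CD51_ICD the order of mean FPKM was TGFBI, SPARC, THBS1, FN1, THBS3, VTN, TNC, THBS2, POSTN and SPP1. The ranges of TGFBI and SPARC overlapped there (1312 to 1365 and 1208 to 1391 FPKM), as did those of each neighbouring pair from TNC down. In NC the order was SPARC, TGFBI, THBS1, FN1, VTN, THBS3, TNC, SPP1, THBS2 and POSTN, with SPARC (360 to 374 FPKM) apart from TGFBI (272 to 276 FPKM) and with the ranges of TNC, SPP1 and THBS2 overlapping. VTN and THBS3 thus stood in the opposite order: THBS3 had 3.19 to 3.86 FPKM and VTN 1.15 to 1.67 FPKM in OE_CD51_ICD, while THBS3 had 2.38 to 3.07 FPKM and VTN 3.42 to 4.58 FPKM in NC. The length behind these values was the union of all annotated exons, 17315 bases for FN1, so a gene with many rarely used exons is given a low level.

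Ratios between genes of the set were compared within libraries. The FPKM ratio of TGFBI to SPARC was 0.980 to 1.11 in OE_CD51_ICD, against 0.728 to 0.765 in NC, and the ratio of FN1 to VTN was 251 to 362 in OE_CD51_ICD, against 12.6 to 17.2 in NC. By contrast, FN1 to THBS1 was 0.809 to 0.861 in OE_CD51_ICD and 0.712 to 0.961 in NC, with overlapping ranges. For the 4 ratios compared, counting THBS1 to THBS3, the exact permutation test (two-sided) gave p = 0.1 for the 3 that did not overlap and 0.8 for FN1 to THBS1, or 0.133 and 0.8 after Benjamini-Hochberg adjustment. With 3 libraries against 3, 0.1 is the smallest p this test can give. The ranges of FN1 to VTN could not overlap, since FN1 was above and VTN below NC in every OE_CD51_ICD library.

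Together the 10 genes took 2.89%, 2.94% and 2.54% of all counts in OE_CD51_ICD replicates 1, 2 and 3, against 0.582%, 0.585% and 0.551% in NC. TGFBI alone took up to 1.05% in OE_CD51_ICD and up to 0.222% in NC. Ranked by count among all genes, TGFBI stood at place 5 to 7 in OE_CD51_ICD and 35 to 40 in NC, and FN1 at 10 or 11 in OE_CD51_ICD and 115 to 130 in NC. SPARC stood at 12 in OE_CD51_ICD and 46 to 50 in NC, and THBS1 at 14 to 18 in OE_CD51_ICD and 189 to 271 in NC. FN1, THBS1, SPARC and TGFBI made up at least 99.9% of the set's counts in each OE_CD51_ICD library and at least 99.5% in each NC library.

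**Figure D4:**
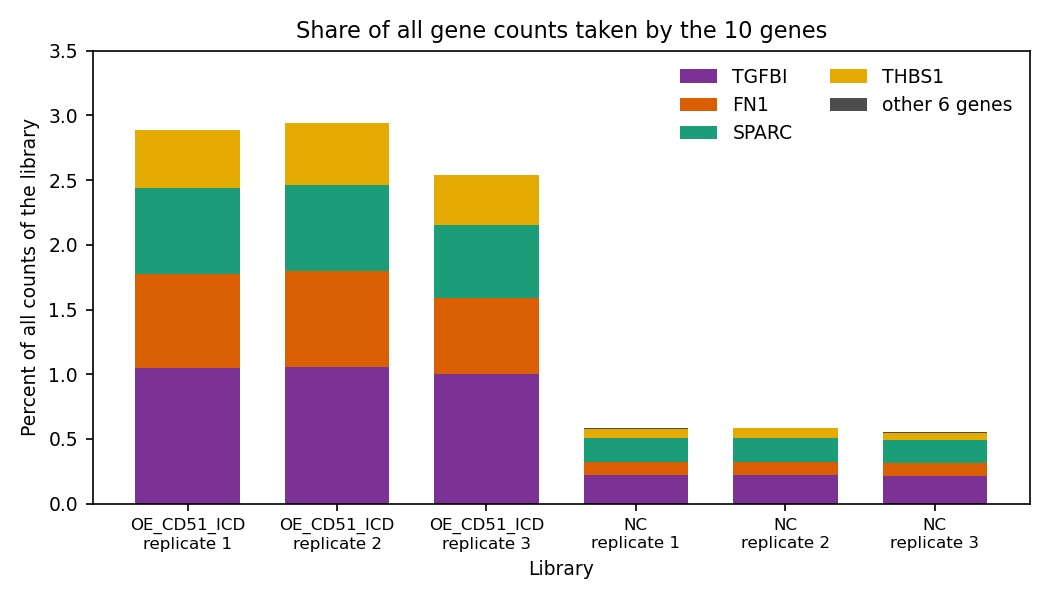
Percent of all gene counts of a library taken by TGFBI, FN1, SPARC, THBS1 and the other 6 genes, stacked, for each library. The 3 OE_CD51_ICD bars reach 2.54% to 2.94% and the 3 NC bars 0.551% to 0.585%, with the other 6 genes at most a thin line.

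**Figure D5:**
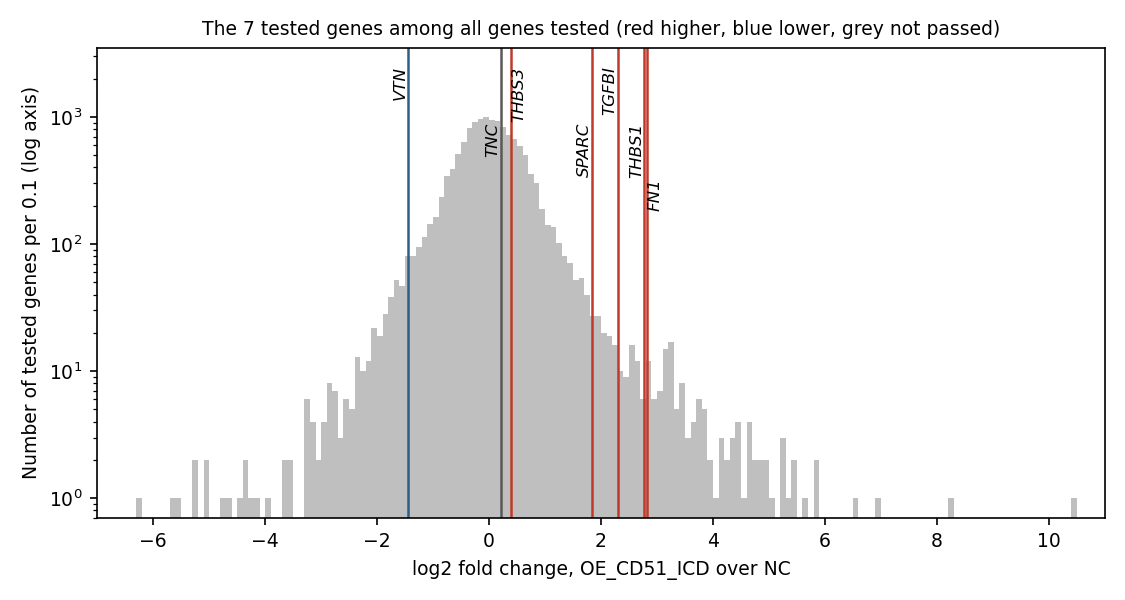
Number of tested genes per 0.1 of log2 fold change (OE_CD51_ICD over NC, log axis), with the 7 tested genes of the set as lines. FN1, THBS1, TGFBI and SPARC lie in the upper tail, and TNC and THBS3 within the bulk of the distribution.

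Of 26 receptors and co-receptors for these proteins, 21 were tested. Higher were 16 of them, lower were 3, and 2 did not pass, with a median log2 fold change of 0.93. Over all tested genes 25.2% were higher and 25.8% lower, with a median of 0.01. Leaving out ITGAV, the gene that encodes CD51, 15 of 20 were higher and 3 lower. ITGB3 and ITGB1, which encode beta subunits that pair with alpha V, had log2 fold changes of 1.88 ± 0.16 and 1.52 ± 0.09 (SE). Their levels differed: ITGB3 averaged 17.4 CPM in OE_CD51_ICD and 4.71 CPM in NC, and ITGB1 1136 and 396 CPM. ITGB5, which encodes a further alpha V partner, was higher by 1.01 ± 0.08 (SE) on the log2 scale. It averaged 1430 CPM in OE_CD51_ICD and 710 CPM in NC. ITGA5, the alpha subunit of the main fibronectin receptor, had 1474 ± 46.5 CPM in OE_CD51_ICD and 718 ± 20.2 CPM in NC (SD, n = 3 each, adjusted p = 1.52e-12, edgeR). ITGA4, an alpha subunit that binds fibronectin and osteopontin, and LRP1, an uptake receptor for thrombospondin 1, were higher by 1.34 and 1.18 on the log2 scale. The lower genes were ITGB8, another partner of alpha V (log2 -1.62), and the syndecans SDC4 and SDC1 (log2 -0.57 and -0.27), which are heparan sulfate co-receptors for fibronectin. SDC1 overlapped between groups, with an adjusted p of 0.0285, and passed under 9 of 19 alternatives, with a range of 5.06e-05 to 0.429. CD47, a thrombospondin 1 receptor, had 20.6 ± 1.27 CPM in OE_CD51_ICD and 20.7 ± 1.46 CPM in NC (SD, n = 3 each), with an adjusted p of 0.980. CD36, another thrombospondin receptor, had 5 counts over OE_CD51_ICD and 3 over NC.

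Of 48 other adhesive and matricellular genes, 20 were tested, with 11 called higher, 3 called lower, 6 not passing and a median log2 fold change of 0.38, in a comparison where 25.2% of all tested genes were higher and 25.8% lower. CTGF, a CCN family protein, led with 2889 ± 114 CPM in OE_CD51_ICD and 260 ± 15.3 CPM in NC (log2 3.47 ± 0.09 SE). EDIL3, an alpha V ligand, SPOCK1, a proteoglycan related to SPARC, and MATN3, a matrilin, were at log2 1.80, 1.75 and 1.64, and the nidogens NID2 and NID1, which link basement membrane networks, at 1.35 and 0.60. The lower genes were NOV, a CCN family member, RELN, reelin, and SRPX, a sushi-repeat protein (log2 -1.62, -0.80 and -0.53). SRPX missed the threshold under 1 of 19 alternatives, unfiltered limma on log2(FPKM + 1), with an adjusted p of 0.0528 and a range from 0.00106. THBS4, the remaining tested thrombospondin, had 1.80 ± 0.918 CPM in OE_CD51_ICD and 1.72 ± 0.203 CPM in NC (SD, n = 3 each), with an adjusted p of 0.911, and COMP had no count in any library.

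Of 28 genes listed for matrix assembly, crosslinking and turnover, 24 were tested, with 15 called higher, 3 called lower and 6 not passing. The median log2 fold change was 0.59, beside 25.2% higher, 25.8% lower and a median of 0.01 over all tested genes. The list includes protease inhibitors and an adhesion adaptor, so not every gene in it acts directly on the 10 proteins. ITGA5 is counted in this list and among the receptors. SERPINE2, a protease inhibitor, was at log2 4.45 ± 0.10 (SE), and TGM2, a transglutaminase that crosslinks fibronectin, had 739 ± 32.9 CPM in OE_CD51_ICD and 81.7 ± 1.68 CPM in NC (SD, n = 3 each, adjusted p = 3.86e-23, edgeR). The urokinase gene PLAU was at log2 2.95, the gelatinase gene MMP2 at 2.85, the tensin gene TNS1 at 2.83 and the stromal protease gene FAP at 2.78. ADAMTS1, a metalloprotease with thrombospondin repeats, TIMP2, an inhibitor of metalloproteases, and HTRA1, a secreted serine protease, were lower (log2 -1.09, -0.87 and -0.54).

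The protein-coding genes with the profile most like FN1 over the 6 libraries, by root mean square difference of centred log2 CPM, were MMP2, TNS1 and AKAP12 (0.101, 0.106 and 0.108). Among those nearest to THBS1 were FRMD6 and SLC22A3 (0.0832 and 0.105). Since FN1 and THBS1 differ between the groups, this choice favours genes that were higher in OE_CD51_ICD. AC037198.1, a transcript annotated inside an intron of THBS1 on the same strand, had 52, 45 and 28 counts in OE_CD51_ICD and 0, 2 and 3 in NC, and so differed in the same direction as THBS1.

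Markers of other cell types that make these proteins were mostly near 0. Of 8 fibroblast markers, 6 were under 1 CPM in every library, with no DCN count and with COL1A2 at 12 counts over OE_CD51_ICD and 0 over NC. The summed list was 398 to 444 CPM in OE_CD51_ICD and 219 to 241 CPM in NC, nearly all of it PDGFRB, and PDGFRB and FAP were called higher. Of 11 microglia and macrophage markers, 10 were under 1 CPM in every library, and P2RY12 and C1QA had no count. The exception was CSF1R, with 32.9 ± 3.34 CPM in OE_CD51_ICD and 3.60 ± 0.894 CPM in NC (SD, n = 3 each), which made up most of the list's sum of 31.4 to 37.2 CPM in OE_CD51_ICD and 3.31 to 4.74 CPM in NC. The 6 endothelial markers summed to 0.715 to 1.57 CPM in OE_CD51_ICD and 2.37 to 3.26 CPM in NC, and the 1 tested among them, KDR, was lower (adjusted p = 0.0484, edgeR). KDR had 29 counts over OE_CD51_ICD and 61 over NC, so this call rests on few counts and lies close to the threshold. Of 4 platelet and megakaryocyte markers, PF4, PPBP and GP9 had no count, and the sum was 0.197 to 0.429 CPM in OE_CD51_ICD and 0.203 to 0.354 CPM in NC.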

How the data were processed

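RNA was measured in 3 OE_CD51_ICD and 3 NC libraries, made with a SMARTER mRNA kit per the labels' protocols, which name TRNzol and a Quick-RNA kit for extraction but not which served which library. The authors deposited whole-number gene counts and FPKM values. Per the submitters' processing notes the build was hg38. Neither the aligner, the counter nor the strand setting is given in the sources used here. All 58735 gene IDs matched GENCODE 29 with the same start and end. In the deposited FPKM table, each value was the count over gene length and a library constant, 0.961 to 1.05 times the total count. The test was that of edgeR 4.0.16, run in R 4.3.3 (filterByExpr, TMM, glmQLFit and glmQLFTest, two-sided, Benjamini-Hochberg over 13787 genes), and the SE of a log2 fold change came from its F statistic. Replicates differed beyond counting noise in every pair, with a mean chi-square per gene of 3.94 to 12.1 where 1 is expected from counting alone. Alternatives used DESeq2 1.42.0 and limma 3.58.1 and are given in the closing section. The edgeR code was tested on simulated counts, with few changed genes and the same spread setting for all genes, a simpler case than these data. Plots used matplotlib 3.10.9 and exact tests SciPy 1.17.1, under Python 3.11.15.

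The members and gene lists were chosen with earlier results of these data known. The text names all 10 members, ITGAV, from each of 3 lists the 6 largest called changes per direction among genes averaging 5 CPM or more, and the 3 genes most like FN1 and THBS1, of which 1 is not reported here. Other genes, such as CD47, CD36, SDC2, ITGB5, THBS4 and the overlapping genes, were chosen after their values were seen. Promoter sequences are from RefSeq, in which all 10 symbols matched. Protein sequences and their motifs were not analysed here.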

Additional observations from a re-analysis of the deposited data

How the results depend on the processing

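Each tested gene was refitted under 19 alternatives: scaling by RLE, by upper quartile or by library size, DESeq2, limma-voom, no filter or a 1 CPM filter, a fit to protein-coding genes, limma with 1 or 0.1 added to FPKM before the log, each replicate left out, a replicate block and removal of the GC trend. FN1 (log2 2.61 to 2.92), THBS1 (2.62 to 2.85), TGFBI (2.24 to 2.34), SPARC (1.73 to 1.92) and VTN (-1.58 to -1.02) stayed past the threshold under all 19. THBS3 (0.30 to 0.53) passed under 14. It missed the threshold under library-size scaling, in unfiltered limma with 1 added to FPKM (adjusted p = 0.0940) and without 3 of the 6 libraries in turn; the cause was not tested. TNC passed under none and had a value below 0 without OE_CD51_ICD replicate 1 (-0.11) and without NC replicate 1 (-0.01). The count of higher members was 4 to 6, the 6 including POSTN once low counts were kept, and that of lower members stayed at 1.

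No pairing by replicate number was seen. Same-numbered libraries had correlations of -0.0503, 0.00134 and 0.0510 of their deviations from the group means. Not every library correlated best with its own number. These correlations cannot tell whether same-numbered libraries were prepared together. With the number as a block, 5 members were higher and 1 lower, and 3437 and 3552 of all genes. Depth limits TNC, THBS2, SPP1 and POSTN. The intervals of the THBS2 and SPP1 ratios cover counting error only. The POSTN ratio rests on the floor set for NC and has no interval.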
